A study of Mus musculus with 8 samples.

Results

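The aminoacyl-tRNA synthetases were followed in hearts that overexpress perilipin 5, a protein on the surface of lipid droplets. The members were the genes whose array row carried exactly 1 symbol of the family, with the row of highest mean taken for each gene. This gave 35 of the 19938 genes measured, 19 cytosolic and 16 mitochondrial. The groups were 4 MHC-Plin5 hearts and 4 control hearts, all from male mice of a c57/bl background, 12 weeks old and labelled as fasted. The series title places the overexpression in cardiomyocytes, the contracting cells of the heart. The labels do not spell out the promoter behind MHC, or say whether the controls were littermates, how long the fast lasted or how many transgenic lines were used. The alanine enzyme Aars, whose row also carries a second symbol, and the cytosolic aspartate enzyme Dars are not analysed here.

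Aminoacyl-tRNA synthetases join each amino acid to its transfer RNA, the step that gives the ribosome its substrates. Most amino acids have one enzyme for the cytosol and a separate nuclear-encoded enzyme, with a symbol ending in 2, for the protein synthesis inside mitochondria. The glycine enzyme Gars and the lysine enzyme Kars serve both compartments from a single gene. Several cytosolic enzymes are bound together in the multisynthetase complex. In cultured cells, genes of many cytosolic synthetases are targets of ATF4, a transcription factor induced when amino acids run short or other stress slows translation.

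The overexpressed gene separated the groups. Plin5 had log2 levels of 12.17, 12.69, 12.63 and 12.08 in MHC-Plin5 hearts 1 to 4, against 8.92, 8.87, 9.04 and 8.58 in control hearts 1 to 4. Every MHC-Plin5 heart thus lay far above every control heart. Array medians lay between 5.99 and 6.24, with the highest in control 2 (6.24) and MHC-Plin5 4 (6.18). Of 49 measured markers of 9 cell types, cardiomyocytes among them, limma called 0 higher and 0 lower. At an unadjusted p under 0.05, 2 were higher, 1 of fibroblasts and 1 of atrial cardiomyocytes. At that p 4 were lower, 2 of smooth muscle cells and pericytes, 1 of lymphocytes and 1 of adipocytes. Over all genes, 2.08% were called higher and 1.17% lower, and 8.69% were higher and 7.86% lower at that unadjusted p. The 7 cardiomyocyte markers averaged 13.43 to 13.65 in MHC-Plin5 hearts and 13.62 to 13.67 in control hearts, so the labelled tissue carried its defining transcripts. Of these 7, 6 were below 0 in difference (median -0.11), with no overlap in 2 (Pln and Tnni3). Over all genes, 57.5% were below 0 and 11.2% had no overlap. The fibroblast markers were above 0 in 7 of 7 (median 0.30) and the macrophage markers in 7 of 7 (median 0.28). The adipocyte markers were below 0 in 4 of 4 (median -0.52). The atrial cardiomyocyte markers had the largest median, 0.78, with 4 of 5 above 0 and 1 higher at an unadjusted p under 0.05. The smooth muscle and pericyte markers were below 0 in 3 of 6 (median -0.16), with no overlap in 1. The mean levels of each of these sets overlapped between the groups. Atrial markers averaged 8.28 to 10.62 in MHC-Plin5 hearts and 7.70 to 10.86 in control hearts, a wide spread within both groups. Fibroblast markers averaged 8.92 to 9.57 in MHC-Plin5 hearts and 8.74 to 9.22 in control hearts. Macrophage markers averaged 8.15 to 8.84 in MHC-Plin5 hearts and 7.97 to 8.41 in control hearts, and adipocyte markers 5.23 to 5.78 in MHC-Plin5 hearts and 5.38 to 7.06 in control hearts. The part of these markers in the differences of the synthetases was not tested. In whole-heart RNA, a change in cell number and a change in RNA per cell cannot be told apart.

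Most cytosolic synthetases were higher in MHC-Plin5 hearts, while 0 of the mitochondrial enzymes were called higher. In limma with Benjamini-Hochberg adjustment over all 19938 genes, 12 of the 19 cytosolic enzymes were called higher, at an adjusted p under 0.05, and 0 were called lower. Over all genes, 2.08% were called higher and 1.17% lower. Of the 16 mitochondrial enzymes 1, Hars2, was called lower. At an unadjusted p under 0.05, 13 cytosolic enzymes were higher and 1 lower, and 0 mitochondrial enzymes were higher and 5 lower, where 8.69% of all genes were higher and 7.86% lower. The median log2 difference, MHC-Plin5 minus control, was 0.90 over the cytosolic enzymes and -0.08 over the mitochondrial ones, beside -0.03 over all genes. The groups did not overlap in 12 cytosolic and 2 mitochondrial enzymes, where 11.2% of all genes had no overlap.

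**Figure D1:**
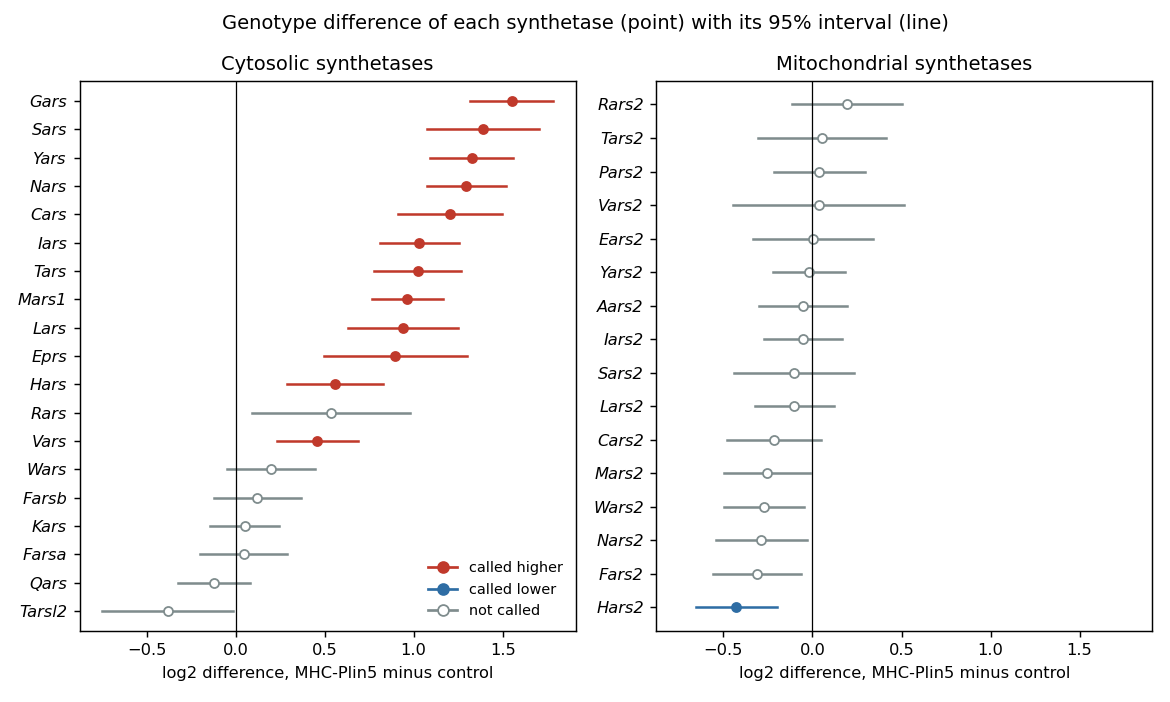
Log2 difference (horizontal axis, MHC-Plin5 minus control) of each cytosolic (left) and mitochondrial (right) synthetase, with the limma estimate as a point and its 95% interval as a line. The 12 cytosolic enzymes called higher lie between 0.46 and 1.55, while the mitochondrial enzymes lie between -0.43 and 0.20.

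Gars, which charges glycine, had the largest difference of the family. Its log2 levels were 11.02, 11.17, 11.43 and 11.33 in MHC-Plin5 hearts 1 to 4, against 9.67, 9.73, 9.69 and 9.67 in control hearts 1 to 4. The control hearts were within 0.06 of each other, and each MHC-Plin5 heart was more than 1 log2 unit above them. The 2.93-fold rise (log2 difference 1.55, SE 0.11) had a limma adjusted p of 4.32e-05. Kars, the other enzyme that serves both compartments, had 8.87, 8.83, 8.76 and 8.82 in MHC-Plin5 hearts, against 8.88, 8.75, 8.74 and 8.72 in control hearts. Its groups overlapped, and its difference of 0.05 had a 95% interval from -0.14 to 0.24. The difference between the genotype effects of Gars and Kars was 1.5 (SE 0.12), with an exact two-sided permutation p of 0.0286, the smallest that 4 against 4 hearts can give.

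The enzymes for serine, asparagine, cysteine and threonine were also called higher. Sars, the serine enzyme, had log2 levels of 9.99, 10.26, 10.35 and 9.76 in MHC-Plin5 hearts, against 8.83, 8.45, 8.71 and 8.80 in control hearts, a 2.62-fold rise (adjusted p = 0.000646). Nars, the asparagine enzyme, had 10.98, 11.23, 11.29 and 11.04 in MHC-Plin5 hearts, against 9.84, 9.93, 9.81 and 9.78 in control hearts, a 2.45-fold rise (adjusted p = 9.87e-05). Neither gene had a MHC-Plin5 heart within 0.9 log2 units of a control heart. Cars, the cysteine enzyme, had 8.65, 9.02, 8.98 and 8.54 in MHC-Plin5 hearts, against 7.51, 7.81, 7.62 and 7.43 in control hearts, and rose 2.30-fold (adjusted p = 0.00103). Tars, the threonine enzyme, had 8.25, 8.68, 8.64 and 8.41 in MHC-Plin5 hearts, against 7.54, 7.42, 7.47 and 7.46 in control hearts, and rose 2.03-fold (adjusted p = 0.000922). In both genes MHC-Plin5 2 and 3 were the highest hearts. Tarsl2, a cytosolic relative of Tars, did not follow it: it had 8.20, 7.61, 7.59 and 8.36 in MHC-Plin5 hearts, against 8.36, 8.34, 8.29 and 8.28 in control hearts. MHC-Plin5 2 and 3 were low and MHC-Plin5 4 lay with the controls, so that the difference of -0.38 was not called (adjusted p = 0.283).

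The 3 enzymes for branched-chain amino acids were all called higher. Iars, the isoleucine enzyme, had log2 levels of 11.32, 11.58, 11.51 and 11.30 in MHC-Plin5 hearts, against 10.51, 10.30, 10.42 and 10.35 in control hearts, a 2.04-fold rise (adjusted p = 0.000477). It was the 1 member with more than 1 row, and its second row had nearly the same difference, 1.04 (SE 0.12, adjusted p = 0.000918). Lars, the leucine enzyme, had 9.60, 9.88, 9.76 and 9.31 in MHC-Plin5 hearts, against 8.96, 8.71, 8.59 and 8.53 in control hearts, a 1.92-fold rise (adjusted p = 0.00526). Vars, the valine enzyme, had 8.36, 8.33, 8.54 and 8.55 in MHC-Plin5 hearts, against 7.86, 7.94, 8.17 and 7.97 in control hearts, a 1.38-fold rise (adjusted p = 0.0372). The groups of Vars were close, with MHC-Plin5 2 at 8.33 above control 3 at 8.17, and its call ended when any single heart other than MHC-Plin5 4 was left out (adjusted p up to 0.122). With the heart number as a replicate block its adjusted p was 0.0644.

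Among the enzymes for aromatic amino acids, the tyrosine enzyme was called and the others were not. Yars had log2 levels of 9.76, 10.06, 9.91 and 9.73 in MHC-Plin5 hearts, against 8.58, 8.46, 8.66 and 8.46 in control hearts, a 2.51-fold rise (adjusted p = 0.000104). Wars, the tryptophan enzyme, which interferon is known to induce, had 9.05, 9.17, 9.46 and 9.18 in MHC-Plin5 hearts, against 8.93, 9.18, 9.03 and 8.93 in control hearts. MHC-Plin5 3 stood highest and the rest overlapped, so that its difference of 0.20 (95% interval -0.05 to 0.44) was not called. Of 9 measured interferon response genes limma called 0, with 7 above 0 and 2 below. At an unadjusted p under 0.05, 4 were higher, where 8.69% of all genes were. Only Ifit3 had no overlap (log2 difference 1.07, adjusted p = 0.060). Their highest mean level in any heart was 8.43 in MHC-Plin5 hearts and 7.46 in control hearts. Their mean distance from the control mean was 0.19, 0.24, 1.12 and 0.05 in MHC-Plin5 hearts 1 to 4, against -0.13, 0.16, -0.05 and 0.02 in control hearts 1 to 4. MHC-Plin5 3 was thus highest for these genes as for Wars, and a link between them was not tested. Farsa and Farsb, the alpha and beta subunits of the phenylalanine enzyme, had differences of 0.05 (95% interval -0.20 to 0.29) and 0.12 (-0.12 to 0.37).

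The methionine enzyme Mars1, which also charges the tRNA that starts each protein, had log2 levels of 9.46, 9.45, 9.41 and 9.62 in MHC-Plin5 hearts, against 8.55, 8.55, 8.56 and 8.44 in control hearts. Both groups were narrow, and the 1.95-fold rise had an adjusted p of 0.000326. Eprs, a single protein that charges both glutamate and proline, had 10.49, 10.57, 10.68 and 9.72 in MHC-Plin5 hearts, against 9.57, 9.48, 9.43 and 9.38 in control hearts. MHC-Plin5 4 lay just above the control hearts, and the 1.86-fold rise (adjusted p = 0.0255) had an adjusted p of 0.000347 without that heart. The call of Eprs ended when any single heart other than MHC-Plin5 4 was left out (adjusted p up to 0.089). Rars, the arginine enzyme, had a like spread, with 10.10, 10.41, 10.72 and 9.59 in MHC-Plin5 hearts, against 9.81, 9.75, 9.59 and 9.52 in control hearts. MHC-Plin5 4 lay inside the control range, and Rars was not called (0.54, adjusted p = 0.201), but was called without MHC-Plin5 4 (0.74, adjusted p = 0.0196). Qars, the glutamine enzyme, had a difference of -0.12 (95% interval -0.33 to 0.08) and was not called.

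Hars and Hars2, the cytosolic and mitochondrial histidine enzymes, are neighbouring genes with 0 genes between them in RefSeq, and they moved in opposite directions. Hars had log2 levels of 8.60, 8.52, 8.72 and 8.85 in MHC-Plin5 hearts, against 8.23, 7.81, 8.20 and 8.21 in control hearts, a 1.47-fold rise (adjusted p = 0.0339). Hars2 had 7.82, 7.53, 7.63 and 7.86 in MHC-Plin5 hearts, against 8.12, 8.22, 8.15 and 8.06 in control hearts, a log2 difference of -0.43 (adjusted p = 0.0494). The groups of neither gene overlapped. The difference between their genotype effects was 0.99 (SE 0.15, exact two-sided permutation p = 0.0286). Both single calls were close to the threshold and ended when any heart other than MHC-Plin5 4 was left out, with adjusted p up to 0.0847 for Hars and 0.163 for Hars2. The call of Hars2 also ended with the heart number as a replicate block (adjusted p = 0.121).

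**Figure D2:**
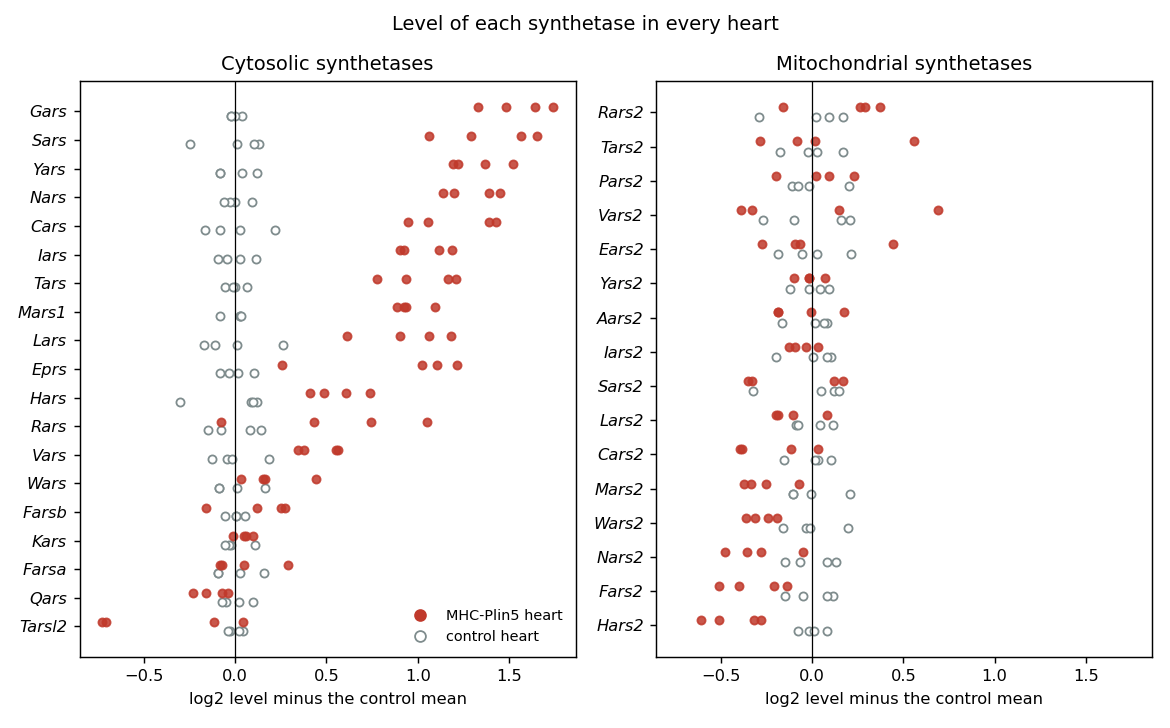
Log2 level of every synthetase in every heart, as the distance from the mean of the 4 control hearts (horizontal axis), for cytosolic enzymes (left) and mitochondrial enzymes (right). Filled points are MHC-Plin5 hearts and open points are control hearts, and the filled points clear the open ones in the 12 cytosolic enzymes called higher and, downwards, in Hars2 and Wars2.

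The other mitochondrial enzymes had small differences. Fars2, for phenylalanine, had log2 levels of 8.45, 8.08, 8.19 and 8.38 in MHC-Plin5 hearts, against 8.70, 8.54, 8.67 and 8.44 in control hearts. Wars2, for tryptophan, had 7.01, 6.89, 7.06 and 6.94 in MHC-Plin5 hearts, against 7.45, 7.22, 7.09 and 7.24 in control hearts. Nars2, for asparagine, had 7.78, 7.55, 7.47 and 7.35 in MHC-Plin5 hearts, against 7.96, 7.68, 7.76 and 7.91 in control hearts. These 3 genes lay mostly below the controls, without overlap in Wars2, and their differences of -0.31, -0.27 and -0.29 were not called (limma adjusted p = 0.176, 0.197 and 0.238). Mars2, for methionine, and Cars2, for cysteine, had differences of -0.25 and -0.21. Rars2, for arginine, had the highest difference of the mitochondrial enzymes, 0.20 (95% interval -0.11 to 0.50). For leucine, serine, isoleucine and alanine, Lars2, Sars2, Iars2 and Aars2 had differences of -0.10, -0.10, -0.05 and -0.05. For tyrosine, glutamate, valine, proline and threonine, Yars2, Ears2, Vars2, Pars2 and Tars2 lay between -0.02 and 0.05. The interval of Vars2 was the widest of the family, -0.45 to 0.51, with MHC-Plin5 levels of 8.05, 7.57, 7.51 and 8.59.

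For 12 amino acids the cytosolic and the mitochondrial enzyme could be set against each other, by comparing their genotype effects heart by heart. The cytosolic effect was above the mitochondrial one in all 12 pairs. In 10 pairs the within-heart difference did not overlap between the genotypes, with an unadjusted exact two-sided permutation p of 0.0286, the smallest that 4 against 4 hearts allow. The largest gaps were those of Nars over Nars2, 1.58 (SE 0.16), Sars over Sars2, 1.49 (SE 0.27), and Cars over Cars2, 1.42 (SE 0.23). Mars1 over Mars2 had the smallest error, with a gap of 1.22 (SE 0.07). Wars over Wars2 was also among the 10 with a gap of 0.47 (SE 0.14), although neither gene was called by itself. In each of the other pairs among the 10, the cytosolic enzyme was already called higher without overlap. The count of 10 thus largely restates those calls. Of all single genes, 11.2% had no overlap, and the share over gene pairs was not computed. The 2 pairs with overlap were Vars over Vars2, 0.43 (SE 0.25, exact permutation p = 0.2), and Rars over Rars2, 0.34 (SE 0.20, exact permutation p = 0.143).

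**Figure D3:**
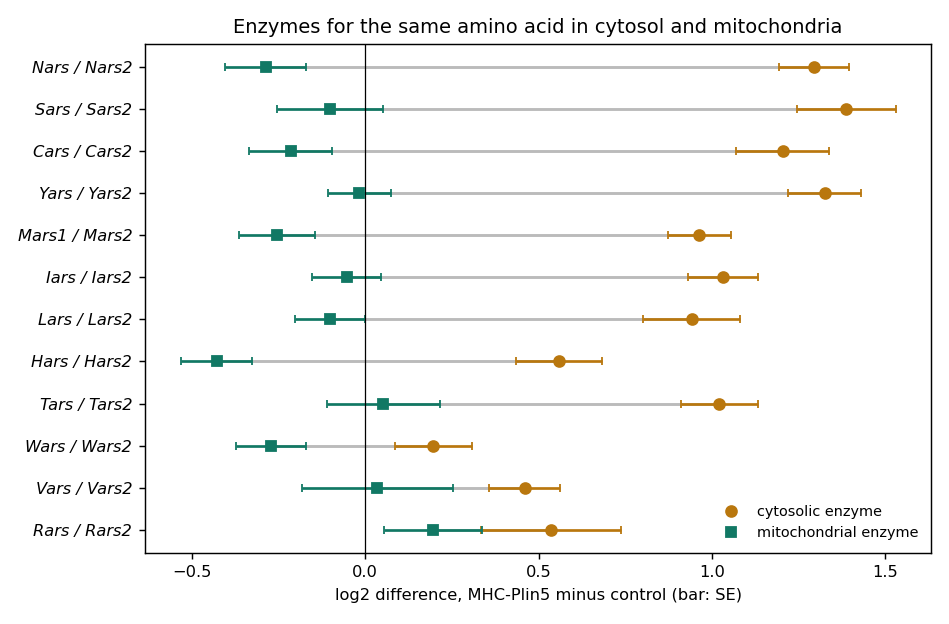
Log2 difference (horizontal axis, MHC-Plin5 minus control) of the cytosolic enzyme (circle) and the mitochondrial enzyme (square) for each of 12 amino acids, with SE bars from limma, ordered by the gap between them. The cytosolic enzyme lies to the right in all 12 rows, by 0.34 to 1.58.

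The enzymes called higher crossed the structural divisions of the family. Of the 10 measured class I cytosolic enzymes, which share one type of catalytic fold, 7 were called higher, and so were 5 of the 9 measured enzymes of class II, which have the other fold. Eprs, which charges both glutamate and proline, was counted under class I only, so its proline part is not in the class II count. The listed class II enzymes were 8, and Tarsl2, the ninth and the one with a negative difference, was added after its values were seen. Of the 7 measured enzymes of the multisynthetase complex, 4 were called higher (Eprs, Iars, Lars and Mars1), and Kars, Qars and Rars were not. Of the 12 cytosolic enzymes outside the complex, 8 were called higher. A list of enzymes reported as ATF4 targets in cultured cells was also set against the calls. The list was chosen with earlier results of these data known, so its match with the calls is not an independent test. Of its 12 measured members, 11 were called higher, where 2.08% of all genes were. Their median difference was 1.03, and Wars was the exception. Of the 7 cytosolic enzymes not on that list, 1 was called higher, Hars, with a median of 0.05.

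Promoter sequence was examined in the members, grouped by whether they were called higher. The windows ran from 250 bases before to 50 bases after each RefSeq transcript start (GRCm38.p6), and 26 of the 35 members had one. The motif TGATGNAA, the core to which ATF4 binds with C/EBP-family partners, was searched on both strands. It was found in Gars, Iars, Tars and Yars, which are 4 of the 7 enzymes called higher that had a window. It was found in 0 of the 19 other members with one. The grouping by calls came from these same data, so these counts are not an independent test. The rest of the 12 enzymes called higher had no window and were not searched. Of all 32851 windows, 3.97% held the motif, a share of windows where the members were counted by gene. The E-box CACGTG, bound by MYC and its relatives, was found in 2 of the 7 (Iars and Tars) and in 2 of the 19 others (Ears2 and Farsb), and in 7.15% of all windows, and it overlapped none of the TGATGNAA matches. The 4 promoters with the TGATGNAA motif are shown with that of Kars, in whose window it was not found, from 120 bases before to 30 bases after the start, 5′ to 3′ on the strand of the gene, with the motif in capitals.
Gars (chr6:55037881-55038030, plus strand): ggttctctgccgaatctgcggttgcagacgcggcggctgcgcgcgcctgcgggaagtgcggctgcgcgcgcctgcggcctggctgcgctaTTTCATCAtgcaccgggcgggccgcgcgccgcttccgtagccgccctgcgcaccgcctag
Iars (chr13:49682010-49682159, plus strand): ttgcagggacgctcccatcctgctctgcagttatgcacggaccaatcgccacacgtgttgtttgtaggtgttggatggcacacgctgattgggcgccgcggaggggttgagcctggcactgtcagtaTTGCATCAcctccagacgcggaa
Tars (chr15:11399629-11399778, minus strand): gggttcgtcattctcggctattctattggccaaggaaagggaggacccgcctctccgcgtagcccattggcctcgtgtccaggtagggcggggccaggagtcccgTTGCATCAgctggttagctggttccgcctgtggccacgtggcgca
Yars (chr4:129189783-129189932, plus strand): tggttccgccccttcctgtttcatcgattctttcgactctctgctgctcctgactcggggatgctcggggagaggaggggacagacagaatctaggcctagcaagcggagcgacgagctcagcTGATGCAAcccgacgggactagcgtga
Kars (chr8:112011325-112011474, minus strand): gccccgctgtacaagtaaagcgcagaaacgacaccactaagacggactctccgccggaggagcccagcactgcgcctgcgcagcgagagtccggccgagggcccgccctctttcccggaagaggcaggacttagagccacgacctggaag

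The match began 30 bases before the start in Gars and 15 before it in Tars, and at base 8 after it in Iars and base 4 after it in Yars. In Gars, Iars and Tars it lay on the strand opposite to the gene and in Yars on the same strand. The printed Yars window lies inside the gene, whose RefSeq span begins earlier, at chr4:129189734, so its transcript start is an internal one. A match describes these letters only, and its part in the changes was not tested. The 4 genes had log2 differences of 1.55, 1.03, 1.02 and 1.33, while Sars, Mars1 and Eprs, with differences of 1.39, 0.96 and 0.90, had windows without the motif.

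The 4 MHC-Plin5 hearts differed in how far the cytosolic enzymes moved, but little over the whole family. Over all 35 members, the mean log2 distance from the control mean was 0.329, 0.295, 0.325 and 0.343 in MHC-Plin5 hearts 1 to 4. Over all 19 cytosolic enzymes it was 0.63, 0.74, 0.79 and 0.60. Averaged over the 12 enzymes called higher, the log2 distance from the control mean was 0.96, 1.15, 1.18 and 0.93 in MHC-Plin5 hearts 1 to 4, against 0.05, -0.04, 0.03 and -0.04 in control hearts 1 to 4. The mitochondrial enzymes averaged -0.02, -0.23, -0.23 and 0.04 in MHC-Plin5 hearts, against 0.01, -0.01, 0.06 and -0.06 in control hearts. MHC-Plin5 2 and 3, the hearts with the higher Plin5 levels, thus had the larger cytosolic and the lower mitochondrial values. Atf4 itself had 8.62, 9.16, 9.22 and 8.70 in MHC-Plin5 hearts, against 7.20, 7.48, 7.52 and 7.50 in control hearts, and was again highest in MHC-Plin5 2 and 3. MHC-Plin5 4, with the second highest array median, was the lowest of its group in 6 of the 12 enzymes and the highest in 3 (Mars1, Hars and Vars). The same hearts stood apart over all genes: on the first principal component, which held 45.8% of the variance, MHC-Plin5 hearts 1 to 4 were at -6.94, -29.1, -42.5 and 3.98, against 18.6, 24.3, 18.3 and 13.3 in control hearts 1 to 4. The cardiomyocyte markers were also lowest in MHC-Plin5 2 and 3, with mean distances from the control mean of -0.05, -0.15, -0.21 and 0.01 in MHC-Plin5 hearts, against 0.00, 0.03, -0.01 and -0.02 in control hearts. The part of either in the order of the hearts was not tested, and the orders rest on 4 hearts.

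Among 43 measured genes for proteins that work beside the synthetases, in 5 lists, 3 were called higher and 0 lower. Over all genes, 2.08% were called higher and 1.17% lower. Of the 43, 8 were higher and 4 lower at an unadjusted p under 0.05, where 8.69% and 7.86% of all genes were. The groups did not overlap in 13 of the 43, where 11.2% of all genes had no overlap. The median difference of the 43 was 0.02. Xpot, the exportin that carries mature tRNAs out of the nucleus, had log2 levels of 9.87, 10.22, 10.08 and 10.16 in MHC-Plin5 hearts, against 8.76, 8.78, 8.89 and 8.59 in control hearts. Every MHC-Plin5 heart was above every control heart, a 2.51-fold rise (limma adjusted p = 0.000117). Trnt1, which adds the CCA end to which the amino acid is joined, had 7.32, 7.27, 7.41 and 7.25 in MHC-Plin5 hearts, against 6.92, 6.59, 6.76 and 6.76 in control hearts (log2 difference 0.55, adjusted p = 0.0144, and 0.0547 without control 3). Eef1a1, the elongation factor that brings charged tRNAs to the ribosome, had 13.52, 13.76, 13.78 and 13.46 in MHC-Plin5 hearts, against 12.58, 12.83, 12.64 and 13.11 in control hearts (0.84, adjusted p = 0.00838). Its muscle form Eef1a2 had a difference of -0.04 (95% interval -0.24 to 0.16). Of the 5 measured cytosolic elongation factors, 3 were higher at an unadjusted p under 0.05. Besides Eef1a1 these were Eef1b2 and Eef2, at 0.31 and 0.28, without overlap but not called (limma adjusted p = 0.232 and 0.136). The rows of Eef1a1 may share signal with its many processed copies in the genome, which was not tested.

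The 3 scaffold proteins of the multisynthetase complex were not called. Eef1e1 had log2 levels of 9.81, 10.35, 10.41 and 10.08 in MHC-Plin5 hearts, against 9.36, 9.80, 9.62 and 9.34 in control hearts. Its groups barely cleared each other, with MHC-Plin5 1 just above control 2, and the difference of 0.63 missed the threshold narrowly (adjusted p = 0.0504). It passed in 8 of 19 alternative fits, with adjusted p between 0.0134 and 0.16 over all of them. Aimp2 and Aimp1 had differences of 0.35 and 0.28 (limma adjusted p = 0.115 and 0.366), without overlap in Aimp2. Of 14 measured genes of mitochondrial tRNA charging, tRNA modification and elongation, limma called 0. Of these 14, 12 had a difference under 0, where 57.5% of all genes did. The groups did not overlap in 5 of the 14, among them Prorp, which was higher, where 11.2% of all genes had no overlap. At an unadjusted p under 0.05, 1 was higher and 3 lower, where 8.69% of all genes were higher and 7.86% lower. The median of the 14 genes was -0.17. Tufm, the mitochondrial counterpart of Eef1a1, was at -0.31 (limma adjusted p = 0.238). Qrsl1, a subunit of the enzyme that makes mitochondrial glutaminyl-tRNA, was at -0.27 (adjusted p = 0.131). Prorp, the 1 higher gene, had the smallest p of the list and went the other way, at 0.35 (adjusted p = 0.101). Of 7 genes of selenocysteine charging and insertion limma also called 0, with 0 at an unadjusted p under 0.05.

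**Figure D4:**
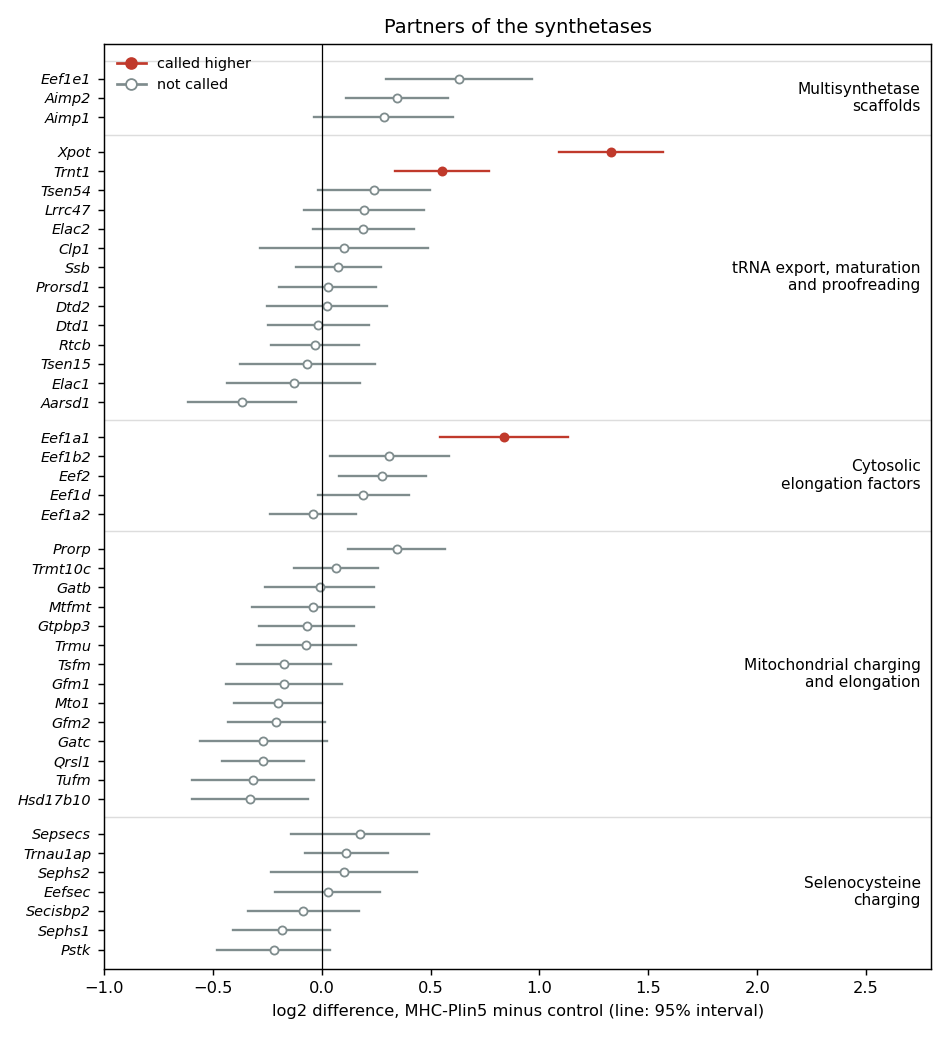
Log2 difference (horizontal axis, MHC-Plin5 minus control) with its 95% interval for 43 partners of the synthetases, in 5 lists. Xpot, Trnt1 and Eef1a1 are the 3 called higher, and 12 of the 14 mitochondrial partners lie left of 0. Of all genes, 57.5% are under 0.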

How the data were processed

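The log2 values deposited by the authors came from RMA, which corrects background, quantile-normalizes and summarizes probes, run in Affymetrix Expression Console per the submitters' notes. The program's version and settings are not given in those sources. RNA of 8 hearts was labelled with biotin for whole-transcript arrays, per the labels' protocols. The number of arrays, 4 per group, limits precision, and scanner files and scan dates were not used here, so no batch was tested. Going by the 4 animals that the series text gives for each genotype, a heart stands for 1 mouse.

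Of 35556 rows, 21789 carried 1 symbol in GEO's platform annotation. The highest-mean row per gene left 19938 genes. All 35 members matched the RefSeq table (GRCm38.p6) by gene ID. Genotype was fitted with lmFit and eBayes of limma 3.58.1 in R 4.3.3, two-sided, with Benjamini-Hochberg adjustment over all genes. A difference is MHC-Plin5 minus control, and a fold is 2 to its power. Exact permutation tests used scipy 1.17.1. The step was tested on simulated data. Members and lists, and the ATF4 list, were chosen with earlier results of these data known. All members are named, with values in every heart for called members and the 4 mitochondrial members of smallest p. Those for Kars, Rars, Tarsl2, Wars, Eef1e1, Vars2 and Atf4, and uncalled partners, were added after their values were seen. Same-numbered hearts had residual correlations of 0.19, 0.03, -0.11 and -0.04, so the numbers were not taken as pairs.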

Additional observations from a re-analysis of the deposited data

Results flagged for a closer look

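In 43 genes and 2 groups of 4 hearts, 4 levels stood apart from the rest of their group, with a gap to the nearest heart above Dixon's 95% critical share of the group's range. Chance flags about 1 in 20 groups. Hars was at 7.81 in control 2, against 8.20 to 8.23 in the other control hearts. Kars was at 8.88 in control 1, against 8.72 to 8.75 in the others. Mars1 was at 8.44 in control 4, against 8.55 to 8.56, and Atf4 at 7.20 in control 1, against 7.48 to 7.52. Without the heart concerned, the log2 difference of Hars was 0.46 (limma adjusted p = 0.0675), that of Kars 0.09 (0.729), that of Mars1 0.94 (0.00207) and that of Atf4 1.43 (0.0034).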

How the results depend on the processing

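In 19 alternative fits between 9 and 13 cytosolic enzymes were called higher, and Cars, Gars, Iars, Lars, Mars1, Nars, Sars, Tars and Yars were called in each. The count was 9 at an adjusted p under 0.01 and 10 with a fold of at least 1.5 added, and 0 cytosolic enzymes were called lower and 0 mitochondrial ones higher in any setting. The 1 call of a lower mitochondrial enzyme, Hars2, became 0 under both of those thresholds, with the lowest-mean row of each gene, with the heart number as a replicate block, with array medians as a covariate, and without control 2 and MHC-Plin5 4. Leaving out single hearts gave 0 to 1. The calls of Hars and Vars also ended without control 2 and MHC-Plin5 4 (adjusted p = 0.0557 and 0.0889), and that of Hars with the array median as a covariate (0.0502). The replicate block ended the calls of Vars (0.0644) and Hars2 (0.121) and no other call among the members, and Eef1e1 passed with it (0.0275). Array weights added Rars. The cause of these changes was not tested. The 12 gaps between cytosolic and mitochondrial enzymes kept their sign in all fits. Signs turned in 22 cases, all in 6 uncalled enzymes close to 0. Ears2 was at -0.0095 after quantile normalization. With array weights and without control 2 and MHC-Plin5 4, Ears2 was at -0.036 and -0.072, Pars2 at -0.070 and -0.034, Tars2 at -0.051 and -0.11, and Vars2 at -0.0996 and -0.12. Yars2 was at 0.024 after median centring. With single hearts left out, Farsa ranged from -0.035 to 0.098, Ears2 from -0.14 to 0.095, Pars2 from -0.029 to 0.12, Tars2 from -0.12 to 0.16, Vars2 from -0.19 to 0.17 and Yars2 from -0.057 to 0.015. Pars2, with a mean under 7, dropped out of the fit filtered at that level. No scaling moved the median of all genes by over 0.1.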
